A study of Mus musculus with 23 samples.

Results

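The genes described here are 9 mouse interferon-inducible GTPases: the guanylate-binding proteins Gbp2, Gbp3 and Gbp7, the immunity-related GTPases Irgm1, Irgm2, Igtp and Iigp1, and the Mx GTPases Mx1 and Mx2. They were taken by symbol from gene tables of 32793 rows, in which all 9 were present. The samples were 23 RNA-seq libraries of the C2C12 line, mouse muscle precursor cells that divide in rich serum and fuse into myotubes once serum is reduced. Control cells (labelled WT) and Runx1KO cells (labelled KO) were each sampled in growth medium with 20% FBS (day 0) and in differentiation medium with 2% horse serum on days 1, 3 and 6. Each of these 8 groups held 3 libraries, except WT on day 0 with 2. The series text gives the last time as day 5, and the sample titles, which give day 6, were followed. The labels name no other agent and no added interferon, and they do not say how the Runx1KO line was made, whether it is 1 clone, or whether replicates were separate cultures. P-values therefore measure only the spread among these libraries, which may be technical.

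Interferon-inducible GTPases are a cell-autonomous defence. Guanylate-binding proteins and the effector immunity-related GTPases assemble on the membranes around intracellular bacteria and parasites, regulatory immunity-related GTPases sit on the cell's own membranes and keep the effectors inactive there, and Mx proteins form rings that block viruses. Their genes have little activity in most resting cells and are switched on by interferons through STAT and IRF transcription factors. Several lie in clusters of related genes that share stretches of sequence, so some reads can be shared between neighbours.

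Libraries held 22197606 to 23684077 estimated counts, and 3 counts, taken here as the floor of detection, correspond to 0.126 to 0.140 CPM (counts scaled to library size by the TMM method). Myod1 and Des, which define the myogenic lineage, had at least 3180 and 22218 counts in each library. Replicate 2 of the day 1 group labelled KO stood apart from its replicates, with a chi-square per degree of freedom of 61.3 and 61.1 against 3.10 to 27.4 for all other replicate pairs. Runx1 mRNA was not lower in the KO-labelled libraries: its mean was 119.8 ± 2.15 (SD, n = 3) against 84.0 ± 0.049 CPM (SD, n = 2) on day 0 and 311 ± 11.8 against 153 ± 10.4 CPM (SD, n = 3 each) on day 6. These counts thus do not show a loss of Runx1. They cannot test the label either, because gene-level counts do not show which exons the reads cover. Directions below are therefore given by label, and KO-labelled libraries are meant throughout.

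The question the series poses is how control and Runx1KO cells differ in growth medium and at each time of differentiation. For these GTPases the direction of the difference depended on the day. In growth medium and on day 1, no member was called higher in the KO-labelled libraries (7.36% and 22.9% of all tested genes were), and Gbp2 and Gbp3 (day 0) and Gbp2, Gbp7, Irgm2 and Igtp (day 1) were lower. On day 3, 8 of the 9 were higher in the KO-labelled libraries, and on day 6 all 9 were, from 2.63-fold for Gbp2 to 48.9-fold for Iigp1 among genes with more than 3 counts in both groups. Calls are from the quasi-likelihood F-test in edgeR (Benjamini-Hochberg adjusted) over 14187 tested genes at an adjusted p under 0.05.

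Those counts read against a background in which many genes were called. The 2 members lower on day 0 compare with 10.1% of all tested genes called lower that day, and the 4 lower on day 1 compare with 19.2%. The 8 higher on day 3 compare with 24% called higher, and the 9 higher on day 6 with 22%. The median log2 fold change (log2FC, labelled KO over WT) of the 9 was -1.15 on day 0, -1.59 on day 1, 2.75 on day 3 and 4.11 on day 6, while over all tested genes it was -0.00, 0.03, 0.04 and 0.00. Without members whose libraries were all at or under the floor in both groups, the medians were -1.82 over 6 members on day 0 and -1.68 over 8 on day 1. All 9 passed the filter on low counts, which needs 2 libraries over its cutoff. Mx1 was over it in 5 libraries, all of them KO-labelled libraries of days 3 and 6, and Iigp1 in 7, all but 1 of them from those groups. Mx2 was over it in 8, of which 2 were WT libraries of day 6. Mx1 and Iigp1 thus passed only through groups in which they were high, so a difference on those days is partly built into the filter, and the counts above are a description. Because these are bulk samples, fewer cells expressing a gene and less RNA per cell cannot be told apart.

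The groups of some members did not overlap at all. On day 0, 3 of the 9 had every KO-labelled library below both WT libraries, a share near that of all genes (26.6%), and on day 1 it was 5 of the 9 (22.7% of all genes). On day 3 all 9 had every KO-labelled library above every WT library by CPM (33.2% of all genes), and on day 6 again all 9 (26.5%). For Gbp2 on day 3 this rests on 3.17 against 3.16 CPM, from 71 and 73 counts. On the TPM scale its groups overlapped that day.

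**Figure D1:**
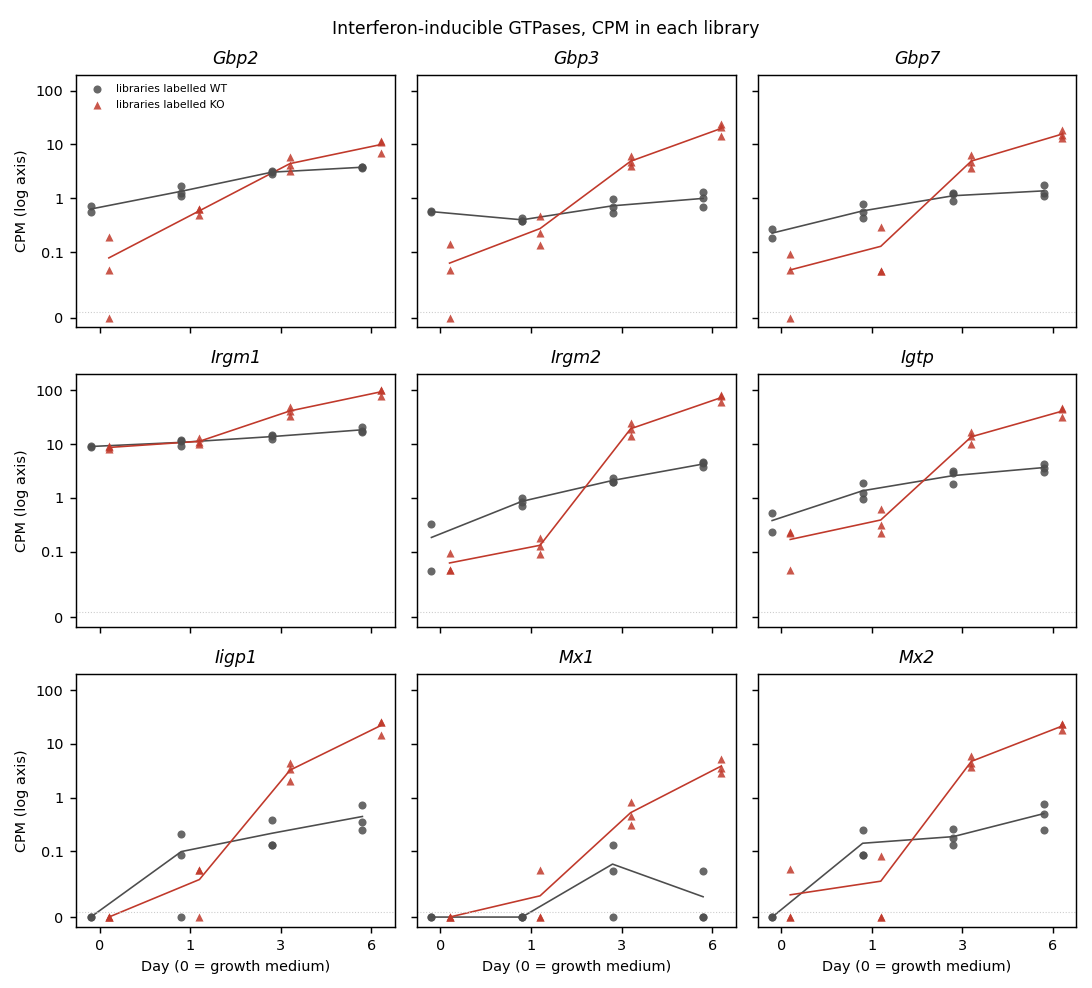
CPM of each of the 9 GTPases (panels) in every library, on a log axis whose lowest tick stands for 0, against day. Circles are libraries labelled WT, triangles KO-labelled libraries and lines join group means; on day 6 every triangle lies above every circle in all 9 panels, and on day 0 the triangles lie below the circles for Gbp2, Gbp3 and Gbp7.

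**Figure D2:**
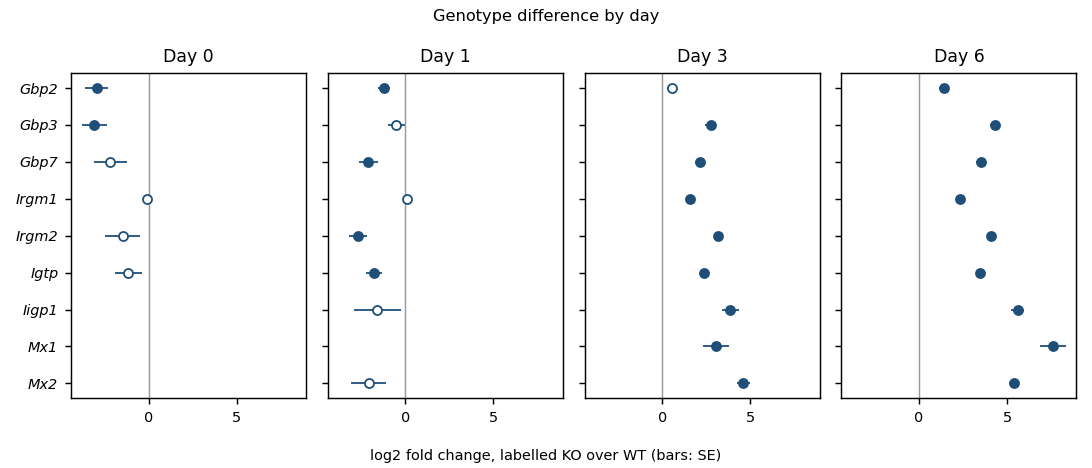
Log2 fold change of the KO-labelled libraries over WT (x axis) with an approximate standard error derived from the F statistic (bars) for each GTPase on days 0, 1, 3 and 6. Filled points passed an adjusted p under 0.05 and open points did not; genes at or under the floor in both groups are not drawn, and points lie at or below 0 on days 0 and 1 apart from Irgm1 at 0.07 on day 1, and above 0 on days 3 and 6.

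The promoters of the members that rose together were inspected in RefSeq's promoter table (build GRCm38.p6, 300 bases around the annotated start, most of them before it), in which 6 of the 9 matched by symbol. Each of the 6 held GAAANNGAAA, the core of the interferon-stimulated response element that IRF and STAT complexes recognise, in either orientation. For Gbp3, with 2 annotated starts, it was present in the 300 bases of the first start. Those of the second did not reach back to it and held no match. Of 32851 promoters of that length, 3.44% held it on either strand. The motifs were chosen after these sequences had been seen, and a match is a description of letters, not a measured binding site. The windows below show the match in capitals with 30 bases on each side (matches that overlap are joined), 5′ to 3′ on the gene's strand, because the same element recurs in genes on different chromosomes:
Gbp7: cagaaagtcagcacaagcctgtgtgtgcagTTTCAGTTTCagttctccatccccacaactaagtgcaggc
Gbp3: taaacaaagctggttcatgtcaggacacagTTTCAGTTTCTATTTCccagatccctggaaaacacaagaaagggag
Gbp2: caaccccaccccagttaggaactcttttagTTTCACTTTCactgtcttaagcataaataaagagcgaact
Irgm1: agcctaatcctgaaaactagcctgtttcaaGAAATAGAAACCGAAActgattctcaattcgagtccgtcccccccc
Igtp: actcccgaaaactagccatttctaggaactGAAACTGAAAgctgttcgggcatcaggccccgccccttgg
Irgm2: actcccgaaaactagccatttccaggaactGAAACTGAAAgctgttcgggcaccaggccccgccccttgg

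These windows lie at chr3:142530253-142530322 (Gbp7), chr3:142559969-142560044 (Gbp3) and chr3:142620574-142620643 (Gbp2), all on the plus strand. Those of the immunity-related GTPases lie at chr11:48871405-48871480 (Irgm1, minus strand), chr11:58199492-58199561 (Igtp, plus strand) and chr11:58214883-58214952 (Irgm2, plus strand). In the 3 guanylate-binding protein genes the capitals read as the reverse complement of the motif, and in the 3 immunity-related GTPase genes they read in the forward direction. Gbp3 and Irgm1 each carried 2 overlapping matches. All matches began between 64 and 24 bases before the start. The Igtp and Irgm2 promoters were close copies, with 244 identical bases of 265 aligned (92.1%), and the 10 capital letters are the same in both.

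TTCNNNGAA, the core of the gamma-activated site, occurred in Gbp7 (2 matches), Igtp and Irgm2, and in 8.3% of all promoters. The RUNX core TGTGGT occurred in Gbp2 alone among the 6, and in 16.8% of all promoters. Neither TTCNNNGAA nor TGTGGT overlapped a GAAANNGAAA match. Iigp1, Mx1 and Mx2 were not among the promoters matched.

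**Figure D3:**
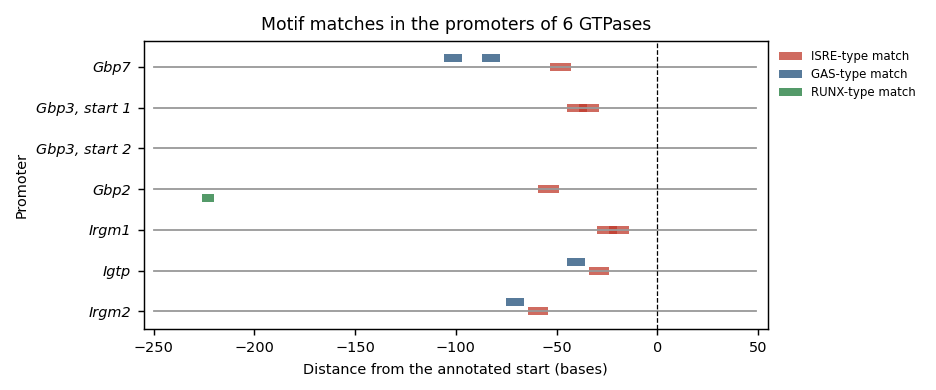
Positions of the 3 motifs in the 300-base promoters of the 6 GTPases matched (rows, Gbp3 with its 2 starts), in bases from the annotated start at 0. Boxes are matches on either strand; ISRE-type is GAAANNGAAA, GAS-type is TTCNNNGAA and RUNX-type is TGTGGT, and ISRE-type boxes fall within 64 bases of the start in 6 of 7 promoters.

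Gbp2, a guanylate-binding protein recruited to parasite vacuoles, lies in the guanylate-binding protein cluster (chr3:142620602-142638008, plus strand). On day 0 it had 16 and 12 counts in the WT libraries and 0, 4 and 1 in those labelled KO, and the groups did not overlap. By mean CPM this was 8.11-fold fewer, with a counting interval of 3.13 to 27.3 (95%, exact). The mean of the KO-labelled libraries, 0.0777 CPM, was under the floor. At day 1 it stood at 1.10, 1.27 and 1.67 CPM in WT and at 0.632, 0.628 and 0.492 CPM in the KO-labelled libraries, again lower without overlap. On day 3 the groups touched without crossing by CPM, with 3.13, 3.16 and 2.86 CPM in WT and 5.93, 3.17 and 4.13 CPM in the KO-labelled libraries. On the TPM scale they overlapped, with 2.20 TPM in replicate 2 labelled KO against 2.43 TPM in replicate 2 of WT. By day 6 the values were 3.70, 3.81 and 3.82 CPM against 6.84, 11.8 and 11.1 CPM, so the order of day 0 was turned round. By the quasi-likelihood F-test in edgeR (Benjamini-Hochberg adjusted) the log2FC was -2.95 at day 0 (SE 0.64, adjusted p = 0.00199), -1.20 at day 1 (SE 0.34, adjusted p = 0.00725), 0.53 at day 3 (SE 0.25, adjusted p = 0.087) and 1.40 at day 6 (SE 0.23, adjusted p = 3.54e-05). Gbp2 was the member that missed the threshold on day 3; without replicate 2 of the day 3 KO-labelled libraries its log2FC there was 0.72 (adjusted p = 0.0291). With limma on log2(TPM + 1) Gbp2 and Gbp3 missed the threshold on day 0 (adjusted p = 0.0813 and 0.0954).

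Gbp3, its neighbour in the cluster (chr3:142560026-142573209), had 13 and 12 counts in WT on day 0 and 0, 3 and 1 in the KO-labelled libraries. On day 1 the groups overlapped, with 9 to 10 counts in WT and 3, 11 and 5 in the KO-labelled libraries. On day 3 it stood at 0.522, 0.953 and 0.694 CPM in WT and at 6.02, 3.98 and 4.67 CPM in the KO-labelled libraries. On day 6 it reached 14.6, 24.3 and 20.7 CPM in the KO-labelled libraries while WT stayed at 0.688, 1.29 and 1.01 CPM, a 20.0-fold difference. Among the 3 guanylate-binding proteins this was the widest separation of the groups on day 6. The log2FC was -3.09 at day 0 (SE 0.71, adjusted p = 0.00309), 2.75 at day 3 (SE 0.29, adjusted p = 8.08e-08) and 4.32 at day 6 (SE 0.27, adjusted p = 7.25e-12), by the quasi-likelihood F-test in edgeR (Benjamini-Hochberg adjusted).

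Gbp7, which in macrophages has been linked to assembly of the NADPH oxidase on vacuoles, lies at chr3:142530342-142550149 on the plus strand. It had 6 and 4 counts in WT on day 0 and 0, 1 and 2 in the KO-labelled libraries, a ratio of 4.83 with a counting interval of 1.26 to 27.7 (95%, exact). On day 1 it had 13, 10 and 18 counts in WT and 1, 7 and 1 in the KO-labelled libraries, with no overlap. At day 3 it stood at 0.871, 1.21 and 1.26 CPM in WT and at 6.34, 4.74 and 3.68 CPM in the KO-labelled libraries. By day 6 it had 1.25, 1.11 and 1.76 CPM in WT against 13.2, 18.7 and 14.9 CPM, an 11.3-fold difference without overlap. The log2FC was -2.10 at day 1 (SE 0.55, adjusted p = 0.00347), 2.14 at day 3 (SE 0.28, adjusted p = 1.82e-06) and 3.50 at day 6 (SE 0.27, adjusted p = 2.48e-10), and on day 0 it was -2.16 and missed the threshold (adjusted p = 0.117, edgeR with Benjamini-Hochberg adjustment). With limma on log2(TPM + 1) the day 1 difference was -0.18 and missed the threshold (adjusted p = 0.187). Of the 50-base stretches in Gbp7 transcripts (GENCODE), 12.7% also occur in other genes, among them Gm43802, which overlaps it on the same strand, and Gbp3, so its counts are the least certain of the 3.

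Irgm1, a regulatory immunity-related GTPase that sits on Golgi and lysosomal membranes, lies at chr11:48861968-48871683 on the minus strand. It was the only member detected well above the floor in every library. On day 0 it had 8.89 and 9.21 CPM in WT and 8.89, 8.03 and 9.13 CPM in the KO-labelled libraries. The day 1 levels were 11.8, 9.29 and 11.3 CPM in WT and 11.2, 12.8 and 9.89 CPM in the KO-labelled libraries. The groups overlapped on both days, and the log2FC was -0.06 (SE 0.17) and 0.07 (SE 0.14). On day 3 the KO-labelled libraries stood at 49.9, 33.5 and 41.1 CPM and WT at 13.9, 14.9 and 12.7 CPM. On day 6 the values were 80.1, 100.2 and 101 CPM against 17.1, 20.6 and 17.9 CPM. All 3 KO-labelled libraries were above all WT libraries on both days, with a log2FC of 1.58 (SE 0.13, adjusted p = 1.57e-09) and 2.34 (SE 0.13, adjusted p = 8.86e-13) by the quasi-likelihood F-test in edgeR (Benjamini-Hochberg adjusted). Irgm1 thus had the highest level and, after Gbp2, the smallest fold difference (5.07-fold on day 6); only 0.379% of its 50-base stretches occur in other genes.

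Irgm2 and Igtp (also called Irgm3), 2 further regulatory immunity-related GTPases, are neighbours on chromosome 11 and share the near-identical promoter shown above. Irgm2 had 1 and 7 counts in WT on day 0 and 1, 2 and 1 in the KO-labelled libraries. In differentiation medium at day 1 it had 17, 24 and 20 counts in WT against 2, 3 and 4 in the KO-labelled libraries, with no overlap. This was 6.57-fold fewer, with a counting interval of 3.24 to 15.1. On day 3 it stood at 2.39, 1.99 and 1.95 CPM in WT and at 24.7, 14.1 and 19.3 CPM in the KO-labelled libraries. On day 6 the KO-labelled libraries held 59.7, 81.0 and 80.0 CPM and WT held 4.51, 4.61 and 3.69 CPM. The reversal from day 1 to day 3 was the widest among members with at least 9 counts in each group, from a log2FC of -2.67 (SE 0.52, adjusted p = 0.000238) to 3.19 (SE 0.20, adjusted p = 1.34e-11), and on day 6 it was 4.11 (SE 0.18, adjusted p = 1.82e-14; edgeR, Benjamini-Hochberg).

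Igtp had 12 and 5 counts in WT on day 0 and 5, 5 and 1 in the KO-labelled libraries, which overlapped. On day 1 it had 1.87, 0.976 and 1.24 CPM in WT and 0.316, 0.628 and 0.224 CPM in the KO-labelled libraries. On day 3 the values were 1.83, 3.12 and 2.86 CPM in WT and 16.9, 9.96 and 14.3 CPM in the KO-labelled libraries. On day 6 they were 3.65, 4.30 and 3.06 CPM against 32.0, 46.6 and 44.5 CPM. The log2FC was -1.77 at day 1 (SE 0.43, adjusted p = 0.00208), 2.40 at day 3 (SE 0.24, adjusted p = 3.53e-08) and 3.48 at day 6 (SE 0.23, adjusted p = 2.16e-11) by the quasi-likelihood F-test in edgeR (Benjamini-Hochberg adjusted). Igtp lies at chr11:58199556-58207591 and overlaps the GENCODE model of Irgm2 (chr11:58199618-58222782, same strand), and 11.8% of its 50-base stretches occur also in Irgm2, so how the authors' estimate divided reads between the 2 genes is uncertain.

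Iigp1 (Irga6), an effector immunity-related GTPase that loads onto parasite vacuoles, was listed at 0 in all 5 libraries of day 0. On day 1 it had 0, 5 and 2 counts in WT and 1, 0 and 1 in the KO-labelled libraries, at which depth a difference was not detectable (ratio 3.31, counting interval 0.646 to 33.5). On day 3 it stood at 4.35, 2.01 and 3.37 CPM in the KO-labelled libraries and at 0.131, 0.130 and 0.390 CPM in WT. On day 6 it reached 14.6, 25.5 and 25.3 CPM in the KO-labelled libraries against 0.731, 0.355 and 0.252 CPM in WT. The log2FC was 3.87 at day 3 (SE 0.48, adjusted p = 1.70e-06) and 5.60 at day 6 (SE 0.39, adjusted p = 2.93e-10; edgeR, Benjamini-Hochberg). These p-values carry the limit given above, since the gene was tested only because it was high in these KO-labelled groups. With every detected gene tested (edgeR without the filter), Iigp1 passed the threshold on both days too. It was the only immunity-related GTPase of the 4 listed at 0 throughout day 0, and it had the widest day 6 difference among them.

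Mx1, whose protein restricts influenza viruses in the nucleus, and Mx2, a cytoplasmic relative, lie near each other on chromosome 16 (chr16:97447035-97462907, minus strand, and chr16:97535308-97560900, plus strand). RefSeq annotates both as transcribed pseudogenes in this reference genome, while GENCODE lists Mx1 as protein coding and Mx2 as a polymorphic pseudogene. A count therefore says nothing of a working protein. Mx1 was listed at 0 in the libraries of days 0 and 1 apart from 1 count in a day 1 KO-labelled library. On day 3 it had 3, 1 and 0 counts in WT and 18, 7 and 10 in the KO-labelled libraries. On day 6 it had 1, 0 and 0 counts in WT against 66, 82 and 118, a ratio of 269 whose counting interval runs from 47.9 to 10666 because WT had 1 count in all. The groups did not overlap on either day, and the adjusted p was 0.00239 on day 3 and 8.61e-08 on day 6 (edgeR, Benjamini-Hochberg). The same limit holds here, and Mx1 passed on both days without the filter too. Mx1 had the lowest TPM of the 9 on day 6 in the KO-labelled libraries, and its ratio is the least certain of the 9.

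Mx2 had at most 1 count in any library of day 0. On day 1 it had 2, 6 and 2 counts in WT and 0, 2 and 0 in the KO-labelled libraries, which did not overlap by CPM but missed the threshold (adjusted p = 0.102, and 0.0341 without replicate 2 of the KO-labelled libraries; edgeR with Benjamini-Hochberg adjustment). On day 3 it stood at 6.07, 3.66 and 4.44 CPM in the KO-labelled libraries and at 0.174, 0.130 and 0.260 CPM in WT. On day 6 the values were 17.9, 23.1 and 23.2 CPM against 0.774, 0.488 and 0.252 CPM. The log2FC was 4.61 at day 3 (SE 0.38, adjusted p = 2.06e-09), the largest of the 9 that day, and 5.39 at day 6 (SE 0.30, adjusted p = 2.35e-12; edgeR, Benjamini-Hochberg). Mx1 and Mx2 share 4.37% and 4.38% of their 50-base stretches with other genes, mainly with each other.

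The series also compares each time of differentiation with growth medium. In WT, 5 members were called higher on day 1 (Gbp2, Gbp7, Irgm2, Igtp and Mx2), against 27.1% of all tested genes called higher. Without WT replicate 1 of day 0 only Igtp of the 5 was called, without WT replicate 2 of day 0 only Irgm2, and the count was 3 without WT replicate 3 of day 1. On day 3 the number was 7 (29.2% of all genes) and on day 6 again 7 (32.6%), with Gbp3 and Mx1 missing the threshold on both days. The day 3 calls of Iigp1 and Mx2 were lost without either WT library of day 0, and that of Iigp1 also without WT replicate 3 of day 3 (adjusted p = 0.0561 to 0.103, edgeR). With limma on log2(TPM + 1) both missed the threshold on day 3, and Iigp1 on day 6. From day 0 to day 6 the WT mean went from 0.184 ± 0.198 (SD, n = 2) to 4.27 ± 0.506 CPM (SD, n = 3) for Irgm2, from 0.380 ± 0.210 to 3.67 ± 0.621 CPM for Igtp and from 9.05 ± 0.232 to 18.5 ± 1.87 CPM for Irgm1. Gbp3 had 0.564 ± 0.011 and 0.993 ± 0.299 CPM, a log2FC of 0.81 (SE 0.42, adjusted p = 0.0977, edgeR with Benjamini-Hochberg adjustment). The median log2FC in WT over 8 members, with Iigp1 and Mx2 (listed at 0 on day 0) at their lower bound and Mx1 left out because it stayed at or under the floor, was 0.67, 1.47 and 2.23 on days 1, 3 and 6, beside 0.02, 0.02 and 0.05 over all genes.

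In the KO-labelled libraries, 3 members were called on day 1 and all 9 on days 3 and 6. On day 1 the 3 members were Gbp2, Gbp3 and Irgm1 (27.2% of all genes were called higher), and the count was 1, Gbp2, without replicate 2 of that day's libraries, the one that stood apart. The call of Gbp3 was also lost without replicate 1 or 3 of day 0 and that of Irgm1 without replicate 2 of day 0 or replicate 1 of day 1. The background was 30.4% of all genes called higher on day 3 and 36.6% on day 6. From day 0 to day 6 the mean went from 0.0617 ± 0.0274 to 73.6 ± 12.0 CPM for Irgm2 (4 counts in all on day 0), from 0.169 ± 0.106 to 41.0 ± 7.91 CPM for Igtp and from 8.68 ± 0.578 to 93.8 ± 11.9 CPM for Irgm1 (SD, n = 3). Iigp1 and Mx1, listed at 0 on day 0, were at least 157-fold and at least 27.9-fold higher on day 6 (against 3 counts per library). The median log2FC over the 9, with these genes at their bound, was 6.19 on day 3 and 7.88 on day 6, beside 0.05 and 0.05 over all genes. Gbp3, Gbp7, Irgm2 and Mx2, which held 1 to 4 counts in all on day 0, entered with their fitted values, so these medians rest on few day 0 counts and are not a bound. On day 1 it was 1.30 over 6 members, beside 0.04 over all genes, with Iigp1, Mx1 and Mx2 left out because they were at or under the floor on both days.

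An interaction term tested whether the genotypes changed unequally from growth medium on. On day 1 none of the 9 passed (3.95% of all genes did in either direction; 0 of the 9 passed with edgeR, DESeq2 or limma, or in edgeR with any library of the groups compared left out, and by edgeR Gbp2 and Gbp3 had an unadjusted p of 0.0305 and 0.00912). On day 3, 6 members passed with a larger increase in the KO-labelled libraries (6.65% of all genes in that direction), and on day 6 the same 6 did (7.54%). The difference in log2FC on day 6 was 7.41 for Gbp3 (SE 0.74), 5.66 for Gbp7 (SE 0.99), 5.58 for Irgm2 (SE 1.10), 4.64 for Igtp (SE 0.85), 4.35 for Gbp2 (SE 0.67) and 2.40 for Irgm1 (SE 0.21). For Iigp1, Mx1 and Mx2, whose day 0 libraries held 1 count at most, edgeR gave no usable standard error. With limma these 3 passed on day 6, but the size followed the pseudocount, because day 0 was at or near 0. The difference was 4.98, 4.55 and 4.92 on log2(TPM + 0.1) and 3.33, 1.80 and 3.53 on log2(TPM + 1). With DESeq2, Iigp1 and Mx1 passed on day 6 (adjusted p = 0.0397 and 0.00633) and Mx2 did not (adjusted p = 0.107). The interaction rests on the day 0 WT libraries for 3 genes. Without WT replicate 2 of day 0, Irgm2 missed the threshold on days 3 and 6 (adjusted p = 0.609 and 0.424). Without WT replicate 1 of day 0, Igtp missed it on both days (adjusted p = 0.197 and 0.0719) and Gbp7 on day 3 (adjusted p = 0.0702), all by the quasi-likelihood F-test in edgeR (Benjamini-Hochberg adjusted).

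From each time to the next, all 9 members were called higher between days 1 and 3 and again between days 3 and 6 in the KO-labelled libraries. The background was 15.5% called higher at the first of these steps and 20.2% at the second. In WT, 3 members were called higher from day 1 to day 3 (Gbp2, Irgm2 and Igtp, against 11% of all genes). Igtp missed the threshold there when replicate 2 or 3 of either day was left out (adjusted p = 0.104 to 0.151, edgeR) and with limma on log2(TPM + 0.1) (adjusted p = 0.0871). From day 3 to day 6 it was 1, Irgm2, against 4.87% (log2FC 1.01, SE 0.22, adjusted p = 0.00424, edgeR with Benjamini-Hochberg adjustment). By day 3 the KO-labelled libraries had reached between 13.6% (Mx1) and 44.4% (Gbp2) of their own day 6 mean. WT on day 6 stood at 2.05% (Iigp1) to 38.0% (Gbp2) of the day 6 mean in the KO-labelled libraries, leaving out Mx1, which had 1 count in that WT group. The mean on day 3 in the KO-labelled libraries was already above that of WT on day 6 for all 9, by 1.17-fold for Gbp2 and, among genes with more than 1 count in that WT group, up to 9.37-fold for Mx2.

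Levels of different genes were compared on the authors' TPM scale, which divides by transcript length. Irgm1 led in all 8 groups, at 6.78 ± 0.085 TPM (SD, n = 2) in WT on day 0 and 72.8 ± 6.16 TPM (SD, n = 3) in the KO-labelled libraries on day 6, without overlap with the next gene. On day 6 in the KO-labelled libraries, Igtp (35.8 ± 5.47 TPM) and Irgm2 (34.5 ± 4.23 TPM) followed and overlapped each other. Below them, Mx2 (15.1 ± 1.51 TPM), Gbp3 (13.0 ± 2.81 TPM) and Iigp1 (12.3 ± 3.10 TPM) overlapped in turn, and Gbp2 (6.90 ± 1.64 TPM) and Gbp7 (4.53 ± 0.707 TPM) did too, while Mx1 was lowest at 2.57 ± 0.570 TPM. In WT on day 6 the order was Irgm1 (15.7 ± 1.32 TPM), Igtp (3.55 ± 0.240 TPM), Gbp2 (2.90 ± 0.291 TPM) and Irgm2 (2.20 ± 0.085 TPM), none overlapping the next. Gbp3, Gbp7, Mx2 and Iigp1 came after these at 0.300 to 0.710 TPM, each overlapping its neighbour. Gbp2 thus held the third place in WT and the seventh in the KO-labelled libraries. The summed level of the 9 ran from 24.8 to 27.2 TPM in the WT libraries of day 6 and from 168 to 216 TPM in those labelled KO.

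**Figure D4:**
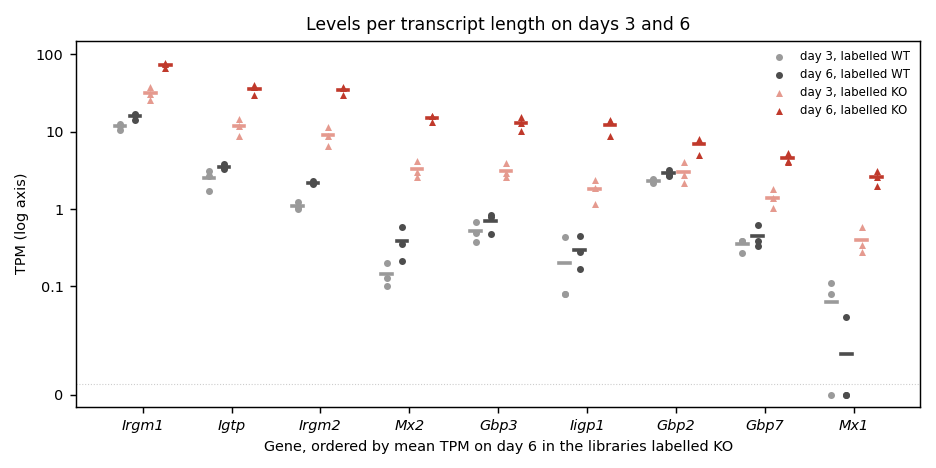
TPM of each GTPase on days 3 and 6, on a log axis whose lowest tick stands for 0; points are libraries, short bars group means, circles WT and triangles KO-labelled libraries. On day 6 Irgm1 is highest in both groups, and Gbp2 shows the smallest gap between them.

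Replicates of the KO-labelled libraries moved together across the members. On day 6, replicate 1 was the lowest of the 3 for all 9 members, against 40.3% of all genes, at a median of 0.702 of the mean of the other 2. It was also the lowest for all 10 genes of a list of type I interferon class targets. On day 3, replicate 1 was the highest for all 9 members (34.9% of all genes), with a median of 1.50 times the mean of the others, and for 9 of those 10 targets. Replicate 2 of that day was the lowest for 8 of the 9. Leaving out any of these libraries kept all 9 members called on day 6 and 8 or 9 on day 3. Across the 23 libraries, log2 CPM of pairs of members correlated from r = 0.68 (Gbp2 and Mx1) to r = 0.99 (Iigp1 and Mx2), with a median of 0.94 over 36 pairs; the points share libraries and the 8 groups, so this is a description.

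**Figure D5:**
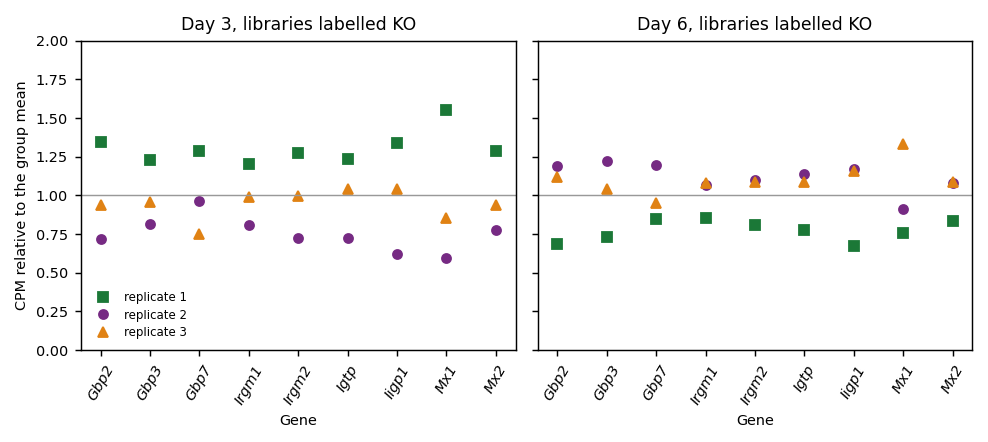
CPM of each GTPase in the 3 replicates labelled KO, divided by the group mean, on day 3 and day 6. Replicate 1 (squares) is the highest for all 9 genes on day 3 and the lowest for all 9 on day 6.

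The genes whose profile over the 8 group means was most like the mean profile of the members were Tgtp1 (r = 0.996), 4930404N11Rik (r = 0.994), Irf7 (r = 0.993), Mief2 (r = 0.993) and H2-Q4 (r = 0.993). In all, 151 genes other than the members reached r = 0.95. Among the members themselves r with that profile ran from 0.896 (Gbp2) to 0.989 (Iigp1).

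Relatives outside the 9 were counted by list. Of 8 other guanylate-binding proteins, 6 were tested. All 6 were higher on day 6 in the KO-labelled libraries (22% of all genes), with a median log2FC of 5.38. Gbp4, Gbp6 and Gbp10 had more than 10 counts, the filter's minimum, only in KO-labelled libraries of days 3 and 6, so the limit given for Mx1 and Iigp1 holds for them and for this count and median. With a mean count of at least 50 required, 2 of the list were tested and both were called. Gbp9 held 387 to 491 counts there and 7 to 16 in WT, Gbp10 held 117 to 205 and 0 to 4, Gbp6 held 86 to 159 and 0 to 6, and Gbp4 held 35 to 52 and 0 to 2. On day 1, 3 of the 6 (Gbp4, Gbp5 and Gbp9) were called higher and 1 (Gbp2b) lower (22.9% and 19.2% of all genes), and whether they differ from the members there was not tested. Of 11 other immunity-related and giant GTPases, 8 were tested. On day 6, 6 were higher and 1 lower (22% and 20.8% of all genes). Among the 6 were Tgtp2 (log2FC 5.73, SE 0.51), Gm4951 (4.83, SE 0.54) and Tgtp1 (4.02, SE 0.41), and Gm4070 was lower (-1.46, SE 0.31). The same limit holds for Gm4951, Gm12250 and F830016B08Rik among the 6, and with that stricter filter 2 of the list were tested and both were called. Housekeeping GTPases of the dynamin, mitofusin and atlastin families, which shape membranes, were counted with the IRG-like gene Irgq (Irgc1 was not tested) and were called in both directions: of 11 tested, 4 were higher and 3 lower on day 6 (22% and 20.8% of all genes), with a median log2FC of 0.13. Dnm2 was the highest of them (0.87, SE 0.09) and Atl1 the lowest (-1.15, SE 0.30).

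The pathway that controls these GTPases was read from further lists. None of 21 interferon ligand genes was tested, because 16 were at 0 in every library and the rest stayed low. Ifnb1 had 1 count at most, and Ifng had 1 to 8 counts in the day 6 KO-labelled libraries, 0 to 4 in those of day 1 and 0 elsewhere. Of 16 tested receptor and signalling genes, 7 were higher and 2 lower on day 6 (22% and 20.8% of all genes), with a median log2FC of 0.16. Among the higher genes were the feedback inhibitor Usp18 (834 to 1205 counts against 4 to 5, with the same limit from the filter), and the transcription factors Irf7 (log2FC 4.67, SE 0.17) and Irf9 (2.38, SE 0.13). On day 1, 5 of the 16 were lower and none higher (19.2% and 22.9% of all genes). All 10 type I interferon class targets were higher on days 3 and 6 (24% and 22% of all genes), with a median log2FC of 4.59 and 6.05. Oas2, an antiviral oligoadenylate synthetase, had 1167 to 1426 counts against 0 to 1 on day 6, and Cmpk2 had 378 to 488 against 0 to 2. The limit from the filter holds again for Oas2, and so for this count and median. Earlier the calls went both ways: 2 of the 10 were higher and 3 lower on day 0 (7.36% and 10.1% of all genes), and 3 were higher and 4 lower on day 1 (22.9% and 19.2%).

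Of 9 genes known mainly as interferon-gamma targets, 3 were tested; on day 6 Cxcl9 was higher (log2FC 4.12, SE 0.43), Cd74 lower (-1.48, SE 0.32), and Nos2 missed the threshold. On day 3, when 8 GTPases were higher, Cxcl9 was higher (1.60, SE 0.50) while Cd74 (-1.11, SE 0.36) and Nos2 (-2.14, SE 0.44) were lower, and on day 1 Nos2 was lower (-2.28, SE 0.46). Fcgr1, H2-Aa and H2-Ab1 were at 0 throughout. Of 10 autophagy conjugation genes, whose products direct GTPases to vacuoles, 1 was higher and 5 lower on day 6, when 22% of all genes were called higher and 20.8% lower (median log2FC -0.13). The 5 included Gabarapl1 (-0.70, SE 0.09) and Gabarap (-0.45, SE 0.11). Without the low-count filter, or without replicate 2 of either day 6 group, 3 were lower and none higher. Inflammasome genes, which act downstream of guanylate-binding proteins, numbered 6 among those tested. On day 6, 2 were higher (22% of all genes) and the median log2FC of the 6 was -0.02. The 2 were Il1b (3.29, SE 0.48, with that limit too) and Gsdmd (0.41, SE 0.08). Casp1 and Casp4 were lower on days 0 and 1 (10.1% and 19.2% of all genes).

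Immune cells express these GTPases strongly, so their markers were measured beside the result. Of 7 macrophage markers 3 were tested: on day 6 Cd68 was higher (log2FC 1.68, SE 0.26), Csf1r lower (-2.04, SE 0.35) and Itgam missed the threshold. Their summed level was 5.55 to 9.40 TPM in WT and 15.7 to 17.5 TPM in the KO-labelled libraries on day 6. Adgre1 and Tyrobp were at 0 in all 23 libraries, and Ptprc, the pan-leukocyte marker, had 1 count in 1 WT library. Of 6 lymphocyte markers none was tested, 3 were at 0 everywhere, and their sum stayed between 0.06 and 0.36 TPM on day 6. Endothelial markers summed to 0.24 to 0.65 TPM in WT and 0.20 to 0.33 TPM in the KO-labelled libraries that day. Of 8 muscle markers, 7 were higher in the KO-labelled libraries on day 3 (24% of all genes), and on day 6, 6 were higher and 1 lower (22% and 20.8% of all genes), with a sum of 3503 to 3800 TPM against 1407 to 1602 TPM in WT. On day 1, when no GTPase was higher and 4 were lower, 5 of these markers were higher and 1 lower (22.9% and 19.2% of all genes; median log2FC 0.99). Their part in the GTPase result was not tested.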

How the data were processed

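Poly(A) RNA-seq of 23 C2C12 libraries was analysed from gene tables deposited by the authors. They hold estimated counts (expected counts, rounded here to whole numbers) and TPM, for which the submitters' processing notes name Bowtie2, RSEM and mm10; their versions and roles are not given in the sources used here. Samples were grouped by title. Genes were filtered with filterByExpr (minimum count 10, minimum total 15), which left 14187 of 32793 (12326 were at 0 throughout). Libraries were scaled by TMM, and 17 contrasts were tested with edgeR 4.0.16 (quasi-likelihood F-test, R 4.3.3) on group means of all 23 libraries, with Benjamini-Hochberg adjustment over all tested genes at 0.05. The steps were tested on simulated data. CPM are counts scaled to TMM-adjusted library size. Each SE given with a log2FC is the absolute log2FC divided by the square root of its F statistic, an approximation and not a direct estimate.

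Alternatives were other scalings, filters and thresholds, DESeq2 1.42.0, limma 3.58.1 on log2(TPM + 1) and log2(TPM + 0.1), only the groups compared, a replicate block, and each library left out. Counting intervals are exact at 95% and, like the floor of 3 counts, cover counting error only. The members and lists were chosen with earlier results of these data known. All 9 members are given, with at most 4 genes per list, those with the largest absolute log2FC among genes called on day 6; other genes named beside a count were chosen after their values were seen. The 5 genes most like the members by Pearson r over 8 group means of log2 CPM are named. The values of 1 gene in these lists are not reported here.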

Additional observations from a re-analysis of the deposited data

Results flagged for a closer look

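For 6 GTPases the change since growth medium differed between the genotypes by a test of that difference itself (edgeR's quasi-likelihood test of the interaction, Benjamini-Hochberg adjustment). The values are the log2 change in the KO-labelled libraries minus that in WT. For Gbp2 it was 3.48 on day 3 (adjusted p = 0.00135) and 4.35 on day 6. For Gbp3 it was 5.83 on day 3 (adjusted p = 1.12e-05) and 7.41 on day 6. For Gbp7 it was 4.30 on day 3 (adjusted p = 0.00444) and 5.66 on day 6. Igtp had 3.55 on day 3 (adjusted p = 0.00572) and 4.64 on day 6, Irgm1 had 1.64 (adjusted p = 1.14e-05) and 2.40, and Irgm2 had 4.67 (adjusted p = 0.00507) and 5.58. The adjusted p on day 6 was between 2.33e-08 (Irgm1) and 0.00104 (Irgm2). Both days share the day 0 libraries, so they are not independent. The values of Irgm2, Igtp and Gbp7 depend on single WT libraries of day 0: without WT replicate 2, Irgm2 had 2.75 and 3.67 (adjusted p = 0.609 and 0.424), without WT replicate 1, Igtp had 2.85 and 3.94 (adjusted p = 0.197 and 0.0719), and Gbp7 on day 3 had 4.04 (adjusted p = 0.0702).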

How the results depend on the processing

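No GTPase value past the threshold changed sign under any alternative run. The counts of members that moved by over 1.5 times were these, and their cause was not tested. For KO against WT on day 0 the count was 0 with limma on log2(TPM + 1), against 2. For day 1 against day 0 in WT (5) it was 3 with limma on log2(TPM + 1) and 2 at an adjusted p under 0.01. For the same step in the KO-labelled libraries (3) it was 5 with limma on log2(TPM + 0.1), 1 with only the groups compared (2 members tested) and 1 at an adjusted p under 0.01. For day 3 against day 1 in WT (3) it was 5 with only the groups compared. For day 6 against day 3 in WT (1) it was 2 with RLE scaling, with library size only, without the filter, with a mean count of at least 50 and with only the groups compared, and 3 with DESeq2.

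With each library of the groups compared left out, the counts for KO against WT ran from 2 to 2, 4 to 5, 8 to 9 and 9 to 9 on days 0, 1, 3 and 6. Against day 0 they ran from 1 to 4, 5 to 7 and 7 to 7 in WT and from 1 to 3, 9 to 9 and 9 to 9 in the KO-labelled libraries. For the steps they ran from 2 to 3 and 1 to 2 in WT (2 without WT replicate 3 of day 6) and stayed at 9 in the KO-labelled libraries. For the interaction they ran from 0 to 0, 4 to 6 and 5 to 6.

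Replicate numbers did not pair the samples: deviations of same-numbered libraries correlated at a mean r of 0.049, 0.003, 0.017 and -0.094 on days 0, 1, 3 and 6. With a replicate block, 2, 4, 8 and 9 members were called for KO against WT on these days, as without it, and Gbp7 alone lost a call (day 1 against day 0 in WT, adjusted p = 0.0608, count 4). Among the lists on day 6, a mean count of at least 50 left 2 other guanylate-binding proteins and 2 other immunity-related GTPases called. Of all genes called on day 0, 42.1% were higher with TMM and 29.5% with library size only. On log2(TPM + 0.1) the median of all genes was -0.11 and -0.12 on days 3 and 6. At these depths a gene with 3 counts or fewer cannot be told from absence.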
